A study of Mus musculus with 28 samples.

Results

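The early response of wild-type CD4+ T cells to CD3 antibody was measured on 6 of the 28 arrays of the series, 3 of unstimulated cells and 3 of cells held for 4 h on plates coated with the antibody at 0.1 µg/ml. All 6 arrays carried total RNA of CD4+ T cells taken from the spleens of 12-week-old female C57BL/6 mice, the wild-type strain of the study, with no transgene or congenic interval named in the labels. They were selected by strain and time as the labels give them, and every gene with a probe set of its own was a member, 17097 in all. The unstimulated cells are labelled as the control with no time given, and no sample is labelled as 4 h of culture without antibody, so antibody, medium, plate contact and time cannot be told apart in any difference below. The other 22 arrays held C57BL/6 cells at 24 h (2 labelled biological and 2 technical) and 2 congenic strains, 9 arrays each. B6.Sle1b carries the lupus-associated Sle1b interval of chromosome 1, and Sle1b.BACSlamf6-H1 has that interval plus an artificial chromosome whose label names H1 of Slamf6, a receptor of the SLAM family. The labels call the arrays of a group biological replicates without tying them to separate animals, so p-values here reflect how far the samples scatter, and some of that scatter may be technical. The way in which CD4+ cells were isolated is not given in the sources used here.

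Antibody against CD3, the signalling part of the T cell receptor complex, cross-links the receptor and starts tyrosine phosphorylation by LCK and ZAP70. From there calcium and calcineurin release NFAT, diacylglycerol activates protein kinase C-theta and NF-kappaB, and RAS and ERK drive serum response factor, EGR and AP-1 proteins. Resting T cells answer with a wave of transcription in which regulators come first, cytokines and their receptors follow, and biosynthesis and cell division come last. No costimulatory antibody to CD28 is named in the labels.

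Values are given as log2 intensity and differences as log2 of 4 h minus unstimulated ± standard error (SE), where 1 unit is a doubling. A gene was called where its adjusted p was under 0.05 with limma and Benjamini-Hochberg adjustment over all 17097 genes, and "rose" and "fell" are used for called genes. Array background, the 95th percentile of 23 non-specific control probe sets, lay between 2.98 and 3.21 in unstimulated samples. Where the dimmer group lay at background a fold is written as "at least". The 75th percentile of intensity was 48.1, 34.8 and 48.9 on the unstimulated arrays 1 to 3, and 45.4, 41.4 and 40.7 on the 4 h arrays. Unstimulated array 2 thus had the lowest 75th percentile of the 6, but also the highest median (10.5) and the highest background (3.21). The number of arrays limits the precision.

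T cell markers were bright as a set, while Cd4, the gene that defines the labelled cells, was lower, at a mean of 6.155 before and 5.633 after. The mean of the 9 T cell markers measured, CD3 chains and Cd4 among them, was 9.52 to 9.53 on the unstimulated arrays and 9.42 to 9.49 on the 4 h arrays. Cd3e, Cd3d, Cd3g and Cd4 were not called (differences of -0.03, -0.13, -0.25 and -0.52). Of the 9, Trat1 rose by 1.73 ± 0.27, and Thy1 and Cd28 fell (-0.66 and -0.70). Markers of other cells ranged from background to bright. The mean of 5 NK cell markers was 5.46 to 5.96 before and 5.50 to 6.05 after, and Cd8b1 of CD8 T cells stood at 5.343 and 5.385. The mean of 13 B cell markers was 5.72 to 6.12 before and 5.59 to 6.05 after stimulation, with Pax5 and Cr2 at background in both groups. The mean of 9 monocyte and macrophage markers was 4.02 to 4.16 and 4.01 to 4.03, with Adgre1 and Itgam at background. The mean of 3 plasma cell markers was 8.26 to 9.05 and 7.73 to 8.43, with Jchain of antibody-secreting cells at a mean of 11.73 before and 11.51 after, and the red cell gene Hba-a1 stood at 11.33 and 11.44. Neither Jchain nor Hba-a1 was called (-0.22 and 0.11). None of the monocyte, neutrophil, dendritic cell, NK cell, CD8 T cell and erythroid markers was called, whereas 1 of 13 B cell markers (Blk) and 2 of 3 plasma cell markers (Xbp1 and Tnfrsf17, genes that other cells express too) fell. Blk lost its call without unstimulated array 1 (adjusted p = 0.137), Xbp1 without unstimulated array 3 (adjusted p = 0.0634) and Tnfrsf17 without 4 h array 2 (adjusted p = 0.28), in the same limma fit. In bulk RNA, fewer cells of a type and less RNA per cell cannot be told apart.

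At 4 h, 697 genes were higher (4.08%) and 507 lower (2.97%) than in unstimulated cells, together 1204 genes (7.04%). Counts within lists below stand against these shares. The rises reached further than the falls. Among the genes that rose, the median difference was 0.79, 264 (1.54% of all genes) had at least doubled, 63 had passed a log2 difference of 2 and 19 had passed 3. Among those that fell, the median was -0.84, 165 (0.965%) had at least halved, 10 had passed 2 and none 3. The 3 arrays of one group lay wholly above the 3 of the other for 670 of the 697 and 474 of the 507, against 11% of all genes higher and 6.31% lower without overlap. Calls and separation come from the same arrays, so these counts describe the called genes and are no further support for the calls. Over all genes the median difference was 0.03, and 5859 genes lay at background in both groups. The counts depended on the arrays used. With the 6 arrays alone, in place of 1 estimate of spread from all 26 biological arrays, 277 genes were called higher and 197 lower, while the 75th percentile as a covariate gave 1521 and 1042. Without unstimulated array 3 the falls numbered 311, and without 4 h array 2 the rises numbered 466 and the falls 317. Of the calls, 382 rises and 260 falls held without each of the 6 arrays in turn, and no gene was called in the opposite direction under any setting.

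**Figure D1:**
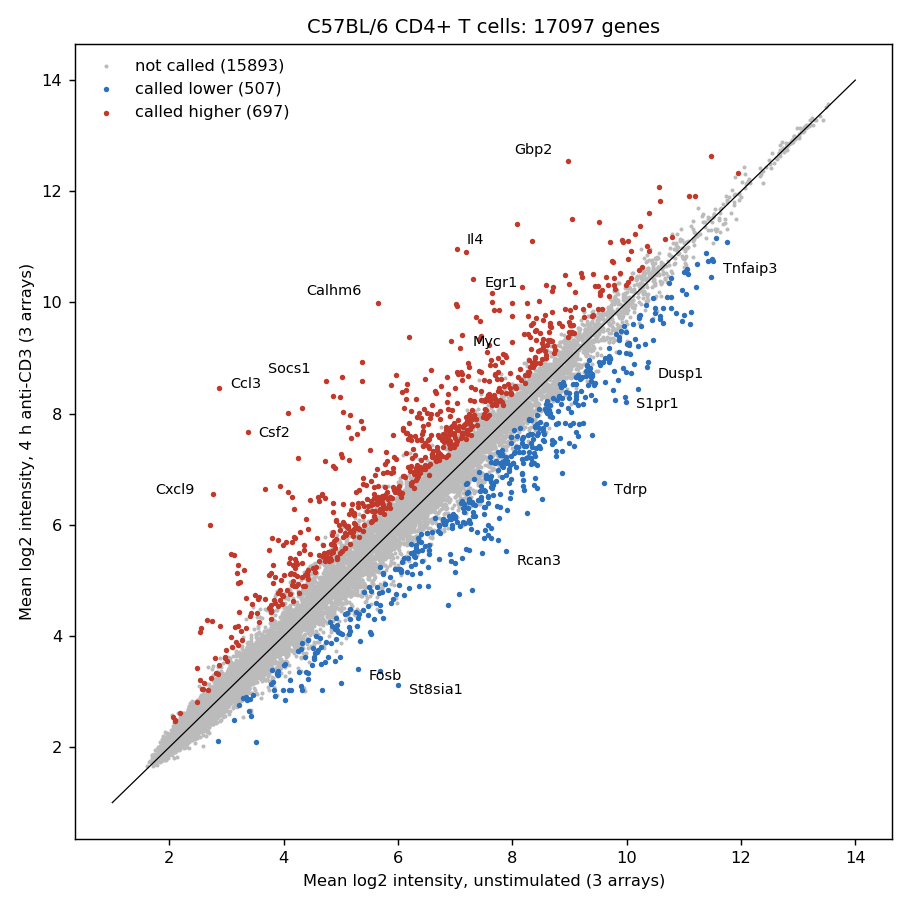
Mean log2 intensity of 17097 genes in unstimulated C57BL/6 CD4+ T cells (x axis, 3 arrays) against 4 h of anti-CD3 (y axis, 3 arrays), with the line of equality. The 697 genes called higher (red) reach as far as Ccl3, 5.60 above the line, whereas the 507 called lower (blue) end at St8sia1, 2.89 below it.

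Genes of secreted proteins were among the largest rises. Of 20 T cell cytokine genes measured, 9 rose and 1 fell, and of 14 chemokine genes 6 rose and none fell, with median differences of 0.63 and 0.56. Without unstimulated array 1 or 3 the chemokine count was 4, and the cytokine count stayed at 9 or more without each array. The largest rise of all named genes was that of Ccl3, which encodes the chemokine MIP-1 alpha. Ccl3 measured 2.98, 2.54 and 3.09 on the unstimulated arrays, at background, and 8.43, 8.99 and 7.98 on the 4 h arrays. That is at least 41.5-fold higher (difference 5.60 ± 0.41, limma adjusted p = 4.27e-09). Its neighbour Ccl4, encoding MIP-1 beta, went from 4.68, 5.21 and 5.17 to 8.40, 9.05 and 8.51, 12.4-fold higher (3.63 ± 0.31, adjusted p = 4.57e-08). For both chemokines the lowest 4 h array lay over 3 units above the highest unstimulated one.

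Csf2, encoding the myeloid growth factor GM-CSF, stood at 3.77, 2.85 and 3.49 in unstimulated cells and at 7.58, 8.06 and 7.38 at 4 h, 19.7-fold higher (4.30 ± 0.30, adjusted p = 2.15e-09). Il4, the cytokine that defines type 2 helper cells, rose 15.2-fold from 6.94, 7.30 and 6.87 to 10.97, 11.35 and 10.55 (3.92 ± 0.27, adjusted p = 2.15e-09). Both genes lie on chromosome 11, as do Ccl3 and Ccl4. Lif, a cytokine of the interleukin-6 family, rose 7.78-fold from 4.60, 3.53 and 4.62 to 7.54, 7.50 and 6.58 (2.96 ± 0.34, adjusted p = 2.94e-06), with 4 h array 3 nearly 1 unit below the other two.

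The T cell products best known from this stimulus rose less. Tnf went from 5.48, 4.71 and 5.32 to 7.76, 8.03 and 6.89 (2.39 ± 0.32, 5.24-fold, adjusted p = 2.25e-05). Ifng, the signature cytokine of type 1 helper cells, went from 6.79, 5.97 and 6.68 to 8.82, 8.56 and 8.48 (2.14 ± 0.30, 4.42-fold, adjusted p = 4.16e-05). Il2, the T cell growth factor, went from 4.79, 4.26 and 4.35 to 6.60, 6.97 and 5.76 (1.98 ± 0.36, 3.94-fold, adjusted p = 9.27e-04). In none of these 3 genes did the groups overlap, and 4 h array 3 was the lowest of its group in each.

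Lta, encoding lymphotoxin alpha, rose by 2.12 ± 0.21, Il13 by 1.22 ± 0.27 and Csf1 by 0.74 ± 0.16. Il16 was the cytokine gene that fell (-0.53 ± 0.12). Csf1 and Il16 are named after their values were seen. The other cytokines measured were not called, among them Il17a (0.89 ± 0.29, adjusted p = 0.0708) and Il10 (-0.59, adjusted p = 0.35). Il21 differed by 0.10 ± 0.46 (adjusted p = 0.975), and Il3 lay at background in both groups. Among chemokines, Cxcl9, an interferon gamma target that attracts T cells through CXCR3, rose at least 11.1-fold from background (2.83, 2.67 and 2.80) to 6.88, 5.91 and 6.88. Ccl1 rose by 1.65 ± 0.30. Xcl1 rose by 1.15 ± 0.31, a call lost without 4 h array 2 (adjusted p = 0.165), and Ccl17 by 1.37 ± 0.34, lost without unstimulated array 1 (adjusted p = 0.0831). Cxcl10, another CXCR3 ligand, measured 0.70 higher and was not called (adjusted p = 0.57).

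**Figure D2:**
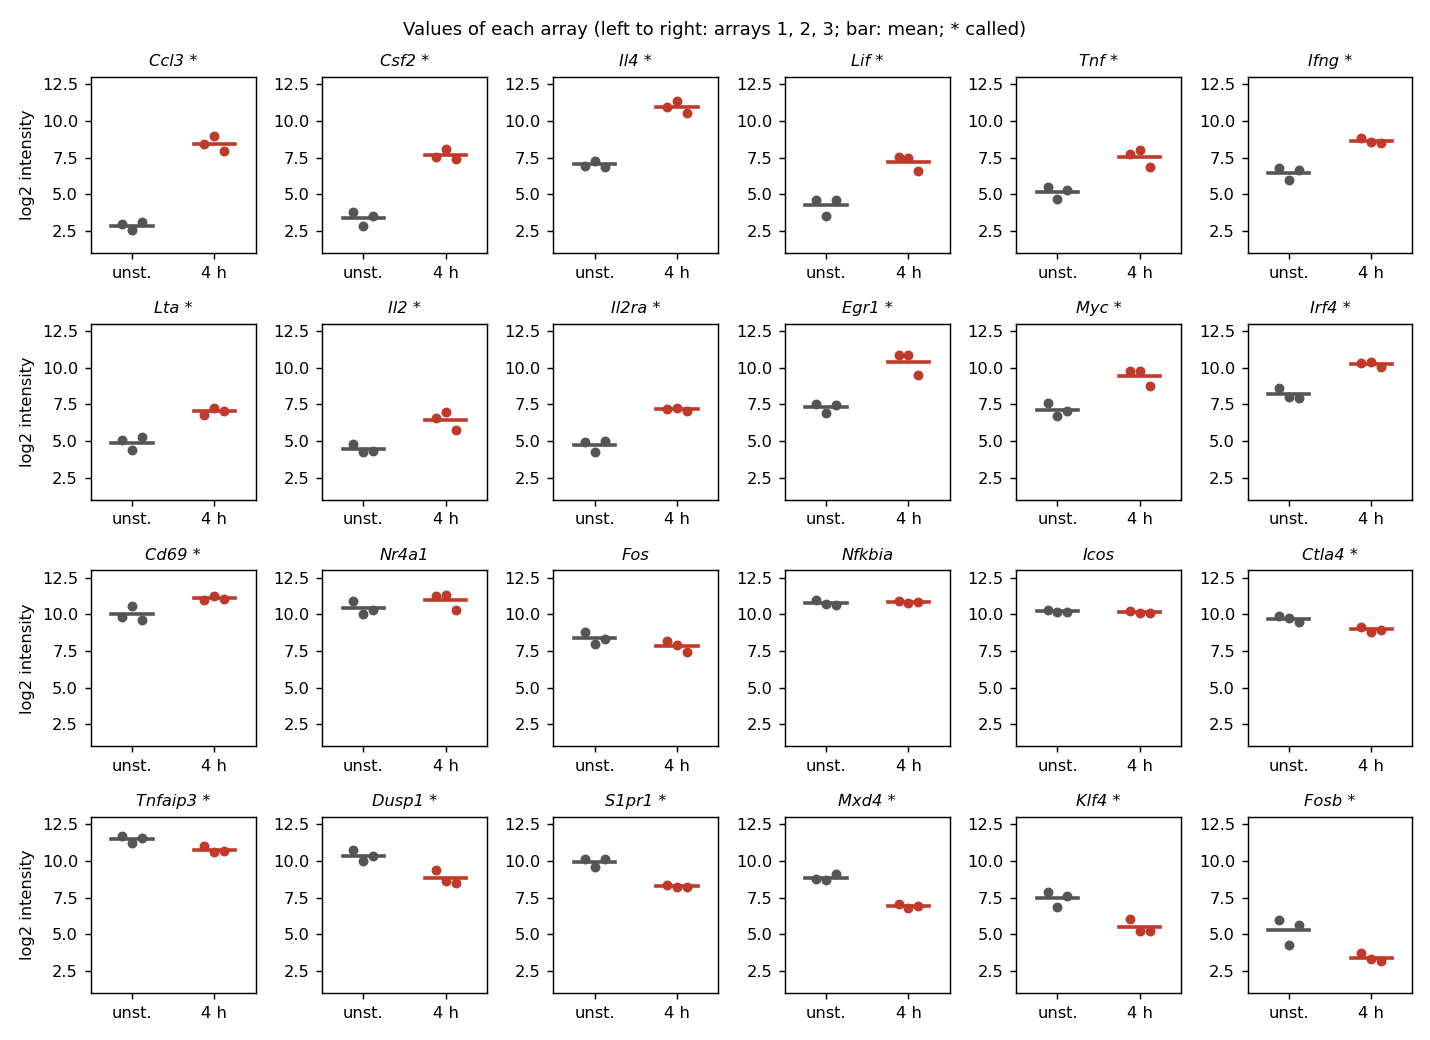
Log2 intensity of 24 genes on each of the 3 unstimulated (grey) and 3 anti-CD3 4 h arrays (red) of C57BL/6 cells, arrays 1 to 3 from left to right, with the group mean as a bar and called genes starred. Ccl3 rises from about background, 2.54 to 3.09, to between 7.98 and 8.99, while Nr4a1, Fos, Nfkbia and Icos overlap between the groups.

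Among surface receptors the calls went both ways. Il2ra, the alpha chain that gives the interleukin-2 receptor its high affinity, rose 5.36-fold from 4.91, 4.26 and 5.01 to 7.16, 7.24 and 7.05 (2.42 ± 0.26, adjusted p = 1.26e-06), and its 4 h arrays lay close together. The related Il15ra rose by 2.08 ± 0.17 and Il4ra by 1.52 ± 0.28. Ifngr2, the signalling chain of the interferon gamma receptor, fell by 1.40 ± 0.21 (adjusted p = 9e-05), while Ifngr1 was not called (-0.22). Il6ra fell by 0.66 ± 0.19 and Tgfbr2 by 0.89 ± 0.21. The last 2 calls were lost without unstimulated array 3 (limma adjusted p = 0.185 and 0.0622). In all, 3 of 21 cytokine receptor genes rose and 3 fell, and the falls numbered 1 without unstimulated array 1 or 3 and 5 without unstimulated array 2.

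Of 20 genes of the tumour necrosis factor superfamily, 6 rose and 2 fell. The rises numbered 4 without unstimulated array 1 or 4 h array 2, and neither fall was called without unstimulated array 1 or 3 or 4 h array 2 or 3. Fas, the death receptor, rose by 1.71 ± 0.17, Tnfsf10, encoding the death ligand TRAIL, by 1.56 ± 0.15 and Tnfsf8, encoding CD30 ligand, by 1.15 ± 0.24. Tnfrsf9, the costimulatory receptor 4-1BB, rose by 1.19 ± 0.17. Cd40lg, the ligand through which helper T cells signal to B cells, measured 3.07, 3.05 and 3.43 before and 3.49, 3.75 and 3.71 after, close to background, and was not called (0.47 ± 0.15, adjusted p = 0.0799). Tnfrsf4 (OX40) was not called either (0.35 ± 0.16, adjusted p = 0.275).

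Receptors of the CD28 family and their ligands split. Cd274, which encodes the inhibitory ligand PD-L1, rose 4.70-fold (2.23 ± 0.24, adjusted p = 1.26e-06) and Cd200 2.53-fold (1.34 ± 0.13). Cd28 itself fell by 0.70 ± 0.15 and the inhibitory receptor Ctla4 by 0.72 ± 0.14. Ctla4 stood at 9.88, 9.78 and 9.47 in unstimulated cells and at 9.17, 8.82 and 8.97 at 4 h, without overlap. Icos and Pdcd1 differed by -0.04 ± 0.10 and 0.07 ± 0.29 and were not called.

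Cd69, an early activation antigen that holds cells in lymphoid tissue, was already bright before stimulation (9.85, 10.58 and 9.63). It reached 10.98, 11.26 and 11.06 at 4 h, a rise of 1.08 ± 0.23 (adjusted p = 0.00392). S1pr1, the receptor that Cd69 antagonises and that guides cells out of lymph nodes, fell 3.18-fold from 10.16, 9.59 and 10.15 to 8.40, 8.23 and 8.26 (-1.67 ± 0.18, adjusted p = 1.17e-06). Gpr183, an oxysterol receptor that positions cells at follicle borders, rose by 1.30 ± 0.17. Of 12 chemokine and homing receptor genes measured, 1 rose (Gpr183) and 2 fell, S1pr1 and S1pr4, the latter by 0.72 ± 0.17 and not called without unstimulated array 3 (adjusted p = 0.0771).

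Within the receptor's own pathway, 6 of 26 genes rose and none fell, with a median of -0.005 and 13 above 0. Without unstimulated array 2 the rises numbered 4 and the falls 3, and without 4 h array 2 there was 1 fall. Lcp2, the adaptor SLP-76, rose by 1.57 ± 0.15 (adjusted p = 3.3e-07), Prkcq, protein kinase C-theta, by 1.49 ± 0.17 and Ptpn6, the phosphatase SHP-1, by 1.22 ± 0.24. Cd247, the zeta chain of the receptor complex, rose by 0.64 ± 0.10. Further probe sets for it showed 0.68 and 0.71, and one near background -0.05. The rise of Txk (0.46 ± 0.14) was lost without 4 h array 3 (adjusted p = 0.241) and that of Ptprc, CD45 (0.38 ± 0.10), without unstimulated array 2 (adjusted p = 0.0794). In the calcium branch, 1 of 19 genes rose and 3 fell, the falls numbering 1 without unstimulated array 3. Ppp3cc, a catalytic subunit of calcineurin, rose by 1.38 ± 0.15, and Rcan3, an inhibitor of calcineurin, fell by 2.36 ± 0.38.

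Negative regulators of signalling were called in both directions. Dusp6, a cytoplasmic phosphatase of ERK, rose by 1.69 ± 0.27 (adjusted p = 2.42e-04). The stress-inducible phosphatases Dusp1 and Dusp10 fell by 1.51 ± 0.20 and 0.98 ± 0.13. Dusp1 measured 10.73, 9.98 and 10.36 before and 9.38, 8.63 and 8.51 after. Tnfaip3, encoding A20, a deubiquitinase that restrains NF-kappaB, was bright and fell from 11.69, 11.23 and 11.57 to 11.05, 10.65 and 10.66 (-0.71 ± 0.14, adjusted p = 0.00172), and its partner Tnip1 fell by 1.10 ± 0.23. Nfkbia, a standard target of NF-kappaB, measured 0.06 ± 0.11 higher and was not called (adjusted p = 0.92), and of 19 genes of that pathway 1 rose and 2 fell. Socs1, which blocks JAK kinases downstream of cytokine receptors, rose 14.5-fold from 4.81, 4.16 and 5.25 to 8.77, 8.72 and 8.30 (3.86 ± 0.25, adjusted p = 1.26e-09), and Cish, of the same family, by 1.34 ± 0.17. Among regulators of G protein signalling, Rgs1 rose by 1.08 ± 0.13, while Rgs2 and Rgs10 fell by 1.30 ± 0.17 and 0.75 ± 0.11.

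The immediate early factors, genes that serum and antigen switch on within minutes and that mostly decline again within hours, were called in both directions. Of 26 measured, 4 rose and 5 fell, with a median difference of -0.01, and the rises numbered 1 without unstimulated array 2 or 4 h array 1 and 2 without 4 h array 2. Egr1, a zinc finger factor induced through ERK, rose 8.57-fold from 7.55, 6.94 and 7.46 to 10.90, 10.84 and 9.51 (3.10 ± 0.36, adjusted p = 3.94e-06). Its relatives Egr2 and Egr3 were not called (1.19 ± 0.38, adjusted p = 0.0666, and -0.09 ± 0.18). Egr2 lay at 7.76, 7.20 and 7.27 before and at 8.95, 9.10 and 7.77 after, so that its groups touched without overlapping. Atf3, Jun and Srf rose by 1.30 ± 0.34, 1.20 ± 0.31 and 1.03 ± 0.31, and each lost its call when 1 array was left out (adjusted p = 0.127 without 4 h array 2 for Atf3, and 0.107 and 0.225 without unstimulated array 2 for Jun and Srf).

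Several immediate early genes were bright in the unstimulated samples. Nr4a1, the orphan receptor Nur77 and a standard reporter of receptor signalling, measured 10.90, 10.01 and 10.31 before and 11.29, 11.33 and 10.28 after, with overlapping groups and no call (0.56 ± 0.38, adjusted p = 0.593). Nr4a3 stood at 10.92, 9.93 and 10.28 against 10.97, 10.87 and 9.78 (0.16 ± 0.32). Fos, a subunit of AP-1, stood at 8.81, 7.96 and 8.31 against 8.18, 7.93 and 7.40 (-0.52 ± 0.27, adjusted p = 0.389). Fosb fell 3.71-fold from 5.98, 4.30 and 5.61 to 3.75, 3.32 and 3.15 (-1.89 ± 0.36, adjusted p = 0.0014). Klf4 fell by 1.97 ± 0.24, Klf10 by 1.03 ± 0.22 and Klf6 by 0.65 ± 0.13. Junb fell by 0.90 ± 0.25 with overlapping arrays, a call lost without unstimulated array 1 (adjusted p = 0.239). How long the unstimulated samples were handled is not given in the sources used here, and its part in these levels was not tested.

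Of the factors of later activation and of helper lineages, 9 of 28 rose and none fell, with a median of 0.18. Irf4, which scales with the strength of the receptor signal, rose 4.28-fold from 8.59, 8.04 and 7.90 to 10.32, 10.42 and 10.08 (2.10 ± 0.21, adjusted p = 6.83e-07). Irf8 rose by 3.23 ± 0.43, although its unstimulated arrays spread from 3.88 to 6.23. Tbx21, the type 1 helper factor T-bet, rose from 5.004, 3.0 and 4.45 to 6.83, 6.84 and 5.83 (2.35 ± 0.45, adjusted p = 0.00127). Batf, a partner of Irf4, rose by 1.51 ± 0.19, and Bach2, a repressor of effector genes, by 1.23 ± 0.24. Foxp3, the regulatory T cell factor, rose by 1.35 ± 0.38, which was lost without 4 h array 1 (adjusted p = 0.17), and Prdm1 (Blimp-1) by 1.19 ± 0.36, lost without unstimulated array 2 (adjusted p = 0.234). Gata3, the type 2 helper factor, measured 0.71 higher and was not called (adjusted p = 0.413), nor were Eomes, Maf and Ikzf2.

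Myc, the driver of T cell growth, rose 4.93-fold from 7.57, 6.73 and 7.03 to 9.77, 9.75 and 8.72 (2.30 ± 0.25, adjusted p = 1.54e-06). Of the MXD family, whose members compete with MYC for the partner MAX, Mxd4 and Mxi1 fell. Mxd4 fell by 1.94 ± 0.20, from 8.79, 8.68 and 9.14 to 7.04, 6.83 and 6.93, and Mxi1 by 1.54 ± 0.17. The other 7 genes of the network measured were not called, Mnt (-0.71, adjusted p = 0.0633), Mxd1 (0.36 ± 0.28) and Mxd3 (0.28 ± 0.16) among them.

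The lists of interferon-responsive genes held the largest shares of rises. These lists, like the others, were chosen with earlier results of these data known. Interferons act through JAK kinases and STAT proteins, with type I interferon acting on the interferon stimulated response element and interferon gamma on gamma activated sites. Of 20 genes listed for type I interferon, 12 rose and none fell, with a median difference of 1.09, and of 15 listed for interferon gamma, 12 rose and none fell, with a median of 1.23. Without 4 h array 3 the type I count was 8, while the interferon gamma count was at least 12 without each array. Gbp2, a guanylate-binding protein that attacks intracellular pathogens, rose 11.8-fold from 9.11, 8.66 and 9.15 to 12.46, 12.50 and 12.65 (3.56 ± 0.16, adjusted p = 3.32e-12). Usp18, which removes the ubiquitin-like ISG15 and dampens interferon signalling, rose 11.8-fold from 5.15, 4.72 and 6.26 to 8.84, 8.60 and 9.37 (3.56 ± 0.34, adjusted p = 2.97e-07). In both genes every 4 h array was above every unstimulated one, a condition for the 20 largest rises, and 4 h array 3 was the highest.

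Other GTPases of immunity rose as well. Iigp1 and Gbp7 rose by 3.33 ± 0.23 and 2.77 ± 0.21, Irgm1 and Igtp by 1.58 ± 0.21 and 1.23 ± 0.20, while Gbp4 was not called (0.33). The RNA sensors and effectors Oas2, Zbp1 and Oasl2 rose by 2.97 ± 0.28, 2.54 ± 0.29 and 2.52 ± 0.42. Stat2 rose by 1.89 ± 0.29, Irf7 by 1.51 ± 0.22 and Irf1 by 1.16 ± 0.18. Ifit3 spread widely, from 5.25, 5.55 and 7.68 to 8.09, 8.13 and 9.36, and its call (2.37 ± 0.59, adjusted p = 0.0148) was lost without 4 h array 3 (adjusted p = 0.105). Other standard members were not called, namely Mx1 (-0.02), Mx2 (0.04), Ifih1 (0.01), Ifit1 (0.34) and Rsad2 (0.38), with adjusted p between 0.825 and 0.997. Of the proteasome genes, 9 of 37 rose and none fell, and the 3 catalytic subunits of the immunoproteasome led them, Psmb9 with 1.73 ± 0.13, Psmb10 with 1.20 ± 0.10 and Psmb8 with 1.10 ± 0.10, against 0.36 to 0.53 for the other 6. The count was 3 without unstimulated array 1, unstimulated array 3 or 4 h array 2, and 13 without unstimulated array 2, and 4 h array 2 was the highest of its group in 7 of the 9.

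Ligands that could act on these genes were measured as well. Ifng rose, as given above. The genes of type I interferon themselves, a group chosen after its values were seen, were not called in any of 10 cases. Ifnb1 lay at background in both groups (2.55, 2.52 and 2.55 before, 2.47, 2.35 and 2.64 after), as did 7 of the other 9. Of the markers of monocytes and dendritic cells, which make type I interferon, 0 of 9 and 0 of 4 were called. At background in both groups were 2 of the 9 (Adgre1 and Itgam) and 1 of the 4 (Xcr1), and the others were detected in at least 1 group. The dendritic cell markers Itgax and Zbtb46 measured higher at 4 h without overlap and were not called (0.13 ± 0.15 and 0.18 ± 0.15), and their part in the interferon genes was not tested.

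**Figure D3:**
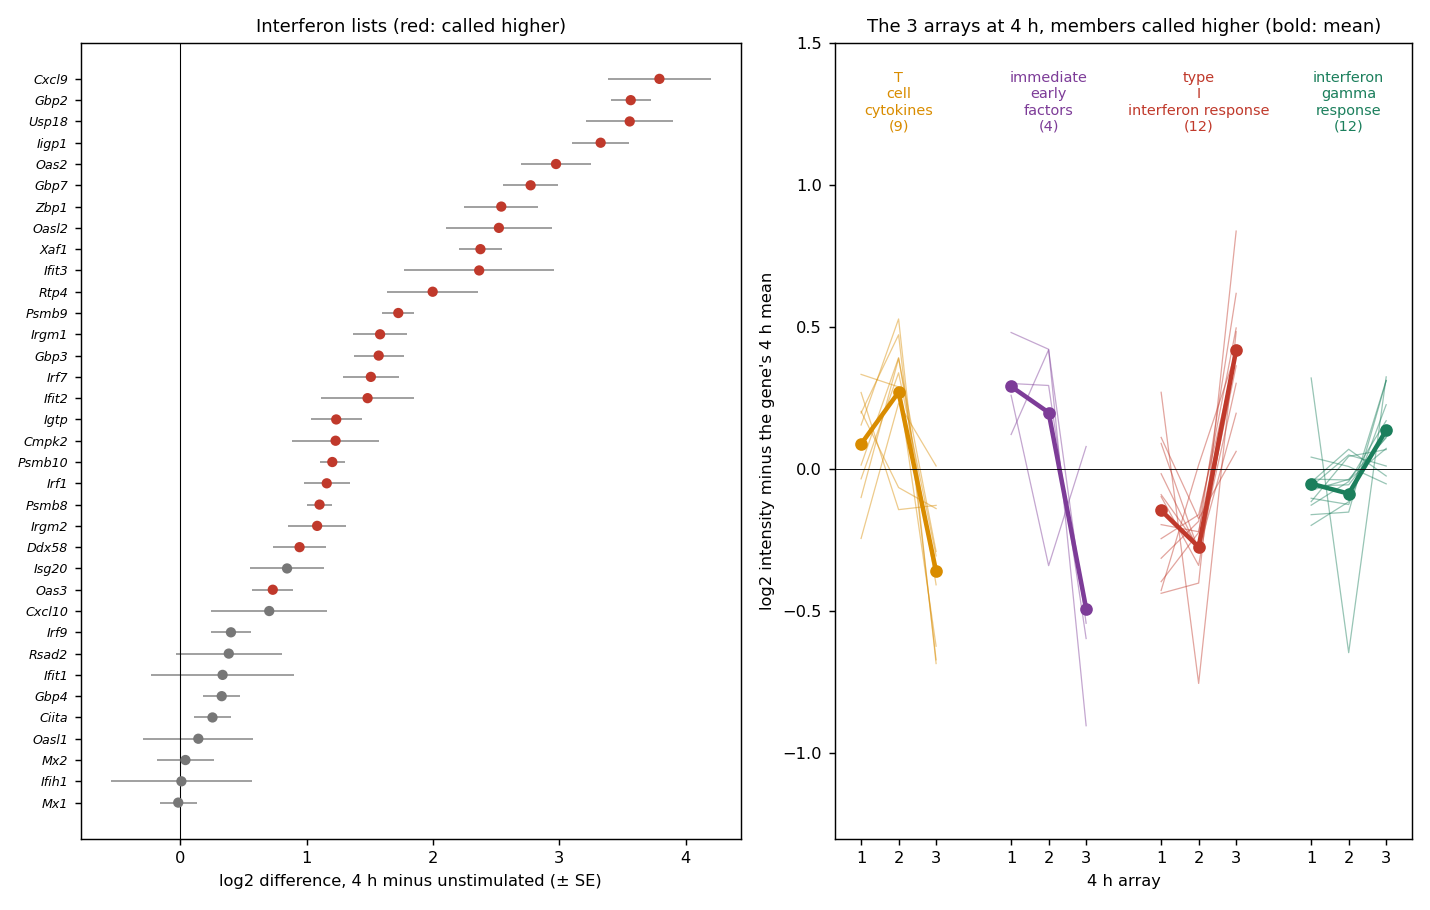
Left, log2 difference of 4 h minus unstimulated ± SE for the measured members of both interferon lists, from Cxcl9 at 3.79 to Mx1 at -0.02, called members in red. Right, log2 intensity on the 4 h arrays 1 to 3 less the gene's 4 h mean for members called higher, thin lines for genes and bold for their mean; array 3 is low for the 9 cytokines and 4 immediate early factors and high for the 12 and 12 interferon genes.

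Promoter sequences, taken from RefSeq with assembly GRCm38.p6 as windows of 250 bases before to 50 after a transcript's start, were searched for 12 motifs on both strands. A promoter was found for 13605 of the genes tested, with 17065 windows in all. The interferon stimulated element was searched as TTTC, any pair of bases, and TTTC, and it stood in 2.98% of all windows, in 15.6% of the windows of genes higher by at least 2-fold (43 of 276), in 0.592% of those lower by at least 2-fold (1 of 169) and in 40.6% of those of the interferon lists (13 of 32). Read the other way, 65 of the 488 genes with the element rose (13.3%, against 4.22% of all genes with a promoter) and 12 fell (2.46% against 3%).

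The gamma activated site, searched as TTCNNNGAA and added after values had been seen, stood in 7.36% of all windows, 15.6% of those higher and 6.51% of those lower. Some windows hold both motifs. The AP-1 site TGANTCA was in 6.51%, 10.1% and 3.55% of these sets, the NFAT core GGAAAN in 59.3%, 68.8% and 57.4%, and the NF-kappaB site in 5.12%, 4.35% and 5.92%. In the opposite direction, the E-box CACGTG was in 8.69%, 5.43% and 13.6%, the cAMP response element TGACGTCA in 2.5%, 0.725% and 5.33%, and the Sp1 box GGGCGG in 52.1%, 48.9% and 69.8%. The serum response element, the EGR site GCGTGGGCG, the ETS site CCGGAAG and the ATF4 composite site TGATGNAA were the other motifs searched, and the first stood in 1.41%, 1.45% and 1.78%. A match is a stretch of letters, not a shown site of binding.

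The element was present in a promoter of 39 genes that rose at least 2-fold. The 10 with the largest rises are shown because they carry this pattern, each as 30 bases of assembly GRCm38.p6. They are on the strand of the gene, 5′ to 3′, with the first match in capitals. Socs1 and Ifit3 hold 2 matches each, and the second of Socs1 overlaps the first and is partly in small letters. The letters GAAA, a pair of bases and GAAA are the same element read on the other strand.
Calhm6 (chr10:34128017-34128046, minus strand): tgaaaaaaaaGAAAGTGAAAcccggaaggg
Il4 (chr11:53618836-53618865, minus strand): gggaggggtgTTTCATTTTCcaattggtct
Socs1 (chr16:10785600-10785629, minus strand): agacttgccgGAAAGAGAAAccgaaagcgg
Gbp2 (chr3:142620594-142620623, plus strand): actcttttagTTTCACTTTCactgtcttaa
Ncoa7 (chr10:30655841-30655870, minus strand): ctccttgaggGAAACAGAAActcaatcttg
Gbp7 (chr3:142530273-142530302, plus strand): gtgtgtgcagTTTCAGTTTCagttctccat
Slfn5 (chr11:82951937-82951966, plus strand): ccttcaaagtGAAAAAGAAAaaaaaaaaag
Ifi203 (chr1:173942508-173942537, minus strand): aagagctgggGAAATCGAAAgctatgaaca
Ifit3 (chr19:34583363-34583392, plus strand): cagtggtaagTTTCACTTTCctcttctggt
Slfn8 (chr11:83020839-83020868, minus strand): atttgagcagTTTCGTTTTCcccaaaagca
Their rises ran from 4.34 ± 0.18 for Calhm6, a channel subunit gene, and 3.92 ± 0.27 for Il4 down to 2.21 ± 0.13 for Slfn8. Il4 has 2 starts in the table and holds the element at 1 of them.

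The whole windows of 5 strongly rising genes show that their letters differ, also among interferon genes. Ccl3 and Csf2 are the panel genes with the largest rises, Gbp2 and Gbp7 are interferon genes with the element, and Cxcl9, the largest rise of the interferon lists, is one without it. Capitals mark the AP-1 site in Gbp2 and Cxcl9, gamma activated sites in Gbp7 and the interferon stimulated element in both Gbp genes.
Ccl3 (chr11:83649329-83649628, minus strand): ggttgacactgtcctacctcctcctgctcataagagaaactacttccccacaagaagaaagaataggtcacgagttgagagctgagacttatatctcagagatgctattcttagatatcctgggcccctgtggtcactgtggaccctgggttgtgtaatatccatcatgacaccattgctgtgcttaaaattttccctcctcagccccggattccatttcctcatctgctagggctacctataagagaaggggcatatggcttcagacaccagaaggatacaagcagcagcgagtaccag
Csf2 (chr11:54249850-54250149, minus strand): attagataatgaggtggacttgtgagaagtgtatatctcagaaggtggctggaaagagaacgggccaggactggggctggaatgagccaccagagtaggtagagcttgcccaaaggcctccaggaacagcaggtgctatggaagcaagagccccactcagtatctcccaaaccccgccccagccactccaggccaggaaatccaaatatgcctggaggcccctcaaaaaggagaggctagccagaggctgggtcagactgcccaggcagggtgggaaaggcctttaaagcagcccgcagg
Gbp2 (chr3:142620413-142620712, plus strand): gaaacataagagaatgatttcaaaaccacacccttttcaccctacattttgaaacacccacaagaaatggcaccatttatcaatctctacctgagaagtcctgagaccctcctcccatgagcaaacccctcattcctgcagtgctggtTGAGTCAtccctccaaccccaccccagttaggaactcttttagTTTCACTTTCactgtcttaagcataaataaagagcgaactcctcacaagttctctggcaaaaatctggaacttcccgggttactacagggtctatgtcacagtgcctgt
Gbp7 (chr3:142530086-142530385, plus strand): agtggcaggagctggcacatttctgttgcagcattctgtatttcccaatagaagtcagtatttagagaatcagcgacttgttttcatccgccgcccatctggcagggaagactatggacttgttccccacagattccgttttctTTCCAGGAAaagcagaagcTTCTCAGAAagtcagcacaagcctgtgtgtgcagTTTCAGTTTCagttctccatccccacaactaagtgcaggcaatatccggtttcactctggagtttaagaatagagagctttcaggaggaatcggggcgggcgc
Cxcl9 (chr5:92328030-92328329, minus strand): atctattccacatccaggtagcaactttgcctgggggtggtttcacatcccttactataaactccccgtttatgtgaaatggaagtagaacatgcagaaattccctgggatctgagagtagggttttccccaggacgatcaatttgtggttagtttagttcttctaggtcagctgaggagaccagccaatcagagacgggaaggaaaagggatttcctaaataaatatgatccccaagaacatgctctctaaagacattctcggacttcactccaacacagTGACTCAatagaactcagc
The element begins 59 bases before the start in Gbp2 and 53 bases before it in Gbp7. In the windows of Ccl3 and Csf2 neither the interferon element nor the AP-1, gamma activated, NF-kappaB, EGR or serum response letters occur, which says nothing of sequence outside them. Oasl2, which rose by 2.52, also lacked all of these letters in its window, Lif held an AP-1 site, and Il4 a gamma activated site at 1 start.

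The 3 arrays at 4 h differed by gene group. Among the 12 genes of the type I list that rose, array 3 was the highest in 11, and among the 12 of the interferon gamma list it was the highest in 9. Among the 9 cytokines that rose it was the lowest in 7, and among the 4 immediate early factors in 3. Over all 697 genes that rose, array 3 was the highest in 327 and the lowest in 210. Mean log2 intensity of the 9 cytokines was 7.41, 7.59 and 6.96 on arrays 1 to 3, and that of the 12 type I genes 7.86, 7.73 and 8.43. Replicates have no order, and what set array 3 apart was not tested. Without array 3, Ifit3 was no longer called, while Csf2, Il4, Tnf, Ifng, Il2, Gbp2 and Usp18 kept their calls without it and without each other array.

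Genes that keep T cells at rest fell more often than they rose. Of 26 naive and quiescence genes, 9 fell and 4 rose, with a median of -0.39. Lef1, a factor of naive T cells, fell 2.98-fold from 8.49, 7.54 and 8.56 to 6.66, 6.63 and 6.57 (-1.58 ± 0.33, adjusted p = 0.00329). Tob1, an antiproliferative protein that recruits deadenylases, fell by 1.06 ± 0.17, Klf3 by 1.05 ± 0.23 and Sesn1 by 0.99 ± 0.17. The cell cycle inhibitor Cdkn1b (p27) fell by 0.76 ± 0.15, with arrays at 9.79, 9.78 and 10.04 before and 9.28, 8.87 and 9.19 after. Klf2, which drives S1pr1, measured 0.74 lower with overlapping arrays and was not called (± 0.26, adjusted p = 0.105), nor were Foxo1 (0.09) and Btg1 (0.06 ± 0.11). Treml2 and the Schlafen genes Slfn1 and Slfn2, listed here as genes of resting cells, rose by 2.29 ± 0.16, 1.27 ± 0.17 and 0.53 ± 0.15, the last not called without unstimulated array 1 (adjusted p = 0.262).

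Many of the largest falls belonged to genes outside the lists, although Rcan3, Klf4, Mxd4 and Fosb, given above, were among the 20 largest as well. St8sia1, a sialyltransferase that makes the ganglioside GD3, fell 7.40-fold from 5.82, 5.74 and 6.46 to 3.28, 3.16 and 2.93 (-2.89 ± 0.23, adjusted p = 2.23e-08). Tdrp fell 7.18-fold from 9.53, 9.34 and 9.93 to 6.80, 6.79 and 6.67 (-2.85 ± 0.26, adjusted p = 1.24e-07). Cpm, a membrane carboxypeptidase, fell by 2.47 ± 0.30, and Pgap1, which remodels GPI anchors, by 2.32 ± 0.29. RNA-binding proteins were among the falls, with Mex3b at -2.32 ± 0.25 and Zfp36l2, which promotes decay of messages with AU-rich elements, at -1.49 ± 0.22. Fbxo32, a ubiquitin ligase of atrophy, fell by 2.03 ± 0.21, Eif2ak3, the unfolded protein kinase PERK, by 2.03 ± 0.26 and Smad7, an inhibitor of TGF-beta signalling, by 1.76 ± 0.25. The arrays did not overlap between groups in these genes, which for the 20 largest falls was a condition of being picked.

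Some of the largest rises were also in genes outside the lists. Rragd, a Rag GTPase of the amino acid sensing pathway to mTORC1, rose 15.3-fold from 4.12, 3.65 and 4.46 to 7.71, 7.98 and 8.34 (3.93 ± 0.24, adjusted p = 3.22e-10). Myo6, a myosin that moves toward the minus end of actin, rose by 3.79 ± 0.24, and Sema7a, a membrane semaphorin, by 3.46 ± 0.31. Pros1, encoding protein S, a ligand of TAM receptors, rose at least 7.57-fold from background (2.41, 3.08 and 2.64) to 5.62, 5.89 and 6.50. Frmd4b rose by 3.19 ± 0.24 and Ncoa7 by 3.31 ± 0.19.

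Called survival and death genes were all higher. Of 16 genes of the BCL2 family and of cell death, 4 rose and none fell; the count was 2 without unstimulated array 2. Bcl2 rose by 1.69 ± 0.20, with arrays at 7.50, 6.67 and 7.50 before and 8.98, 8.86 and 8.87 after, and Casp8 by 1.15 ± 0.12. Mcl1 and Bcl2l1 rose by 0.39 ± 0.10 and 0.59 ± 0.15, calls lost without unstimulated array 2 (adjusted p = 0.0931) and unstimulated array 3 (adjusted p = 0.0851). The death gene Bcl2l11 (BIM) was not called (-0.39 ± 0.23).

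Some genes of growth rose. Of 45 ribosome biogenesis genes, 7 rose and none fell, with a median of 0.30 and 37 above 0. The count was 2 without 4 h array 2, near the share of all genes called higher (4.08%), and 12 without 4 h array 3. Array 2 was the highest of its group in all 7. Lyar, Nolc1, Noc3l, Rrp1b and Rrs1 were not called without 4 h array 2 (limma adjusted p = 0.0929, 0.054, 0.367, 0.0976 and 0.208). Noc4l rose by 1.36 ± 0.27 and Dkc1, the pseudouridine synthase of nucleolar RNPs, by 0.89 ± 0.10, while Nop56 was not called (0.26 ± 0.10, adjusted p = 0.124). Of 18 aminoacyl-tRNA synthetases, 4 rose (1 without 4 h array 2, 2 without unstimulated array 2 or 4 h array 3) and 1 fell, and Wars, the tryptophanyl enzyme that interferon gamma also induces, rose most (1.83 ± 0.17, adjusted p = 1.24e-07). Eprs fell by 0.60 ± 0.13. Srm, spermidine synthase, rose by 1.501 ± 0.34, which was lost without 4 h array 2 (adjusted p = 0.0563). Of 66 cytosolic ribosomal proteins 1 rose and none fell, and of 73 mitochondrial ones 4 rose and 1 fell. These counts lie near or under the shares of all genes, 4.08% higher and 2.97% lower. The mitochondrial rises numbered 2 without 4 h array 1 or 2 and 7 without unstimulated array 2.

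Of 19 genes of glycolysis and glucose uptake 2 rose and none fell, Hk1 by 1.36 ± 0.30 and Pfkfb3 by 0.82 ± 0.21, the latter lost without 4 h array 1 (adjusted p = 0.0885). Slc2a1, the main glucose transporter of activated T cells, differed by 0.25 ± 0.28. Of 10 amino acid transporters 2 fell, Slc43a2 by 1.23 ± 0.25 and Slc38a2 by 0.71 ± 0.14, and Slc7a5 was not called (-0.19 ± 0.35). Of 17 genes of cholesterol synthesis and uptake, Idi1 rose by 0.59 ± 0.12 and Sc5d and Insig1 fell by 0.75 ± 0.14 and 0.39 ± 0.11, the last not called without 4 h array 2 (adjusted p = 0.137).

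None of 18 DNA replication and none of 14 mitosis genes was called, against 7.04% of all genes, with medians of -0.12 and 0.33. Of 18 G1 cyclins and regulators 1 rose and 4 fell. Ccnd2, the first D-type cyclin of T cells, rose by 1.33 ± 0.16, from 9.25, 8.75 and 9.60 to 10.50, 10.65 and 10.45. Beside Cdkn1b, Cdkn2d fell by 0.92 ± 0.19, Ccne2 by 0.91 ± 0.24 and Cdkn1a (p21), with overlapping arrays, by 0.71 ± 0.20. Ccne2 was not called without 4 h array 2 (adjusted p = 0.11), nor Cdkn1a without unstimulated array 1 (adjusted p = 0.256). The falls numbered 2 without unstimulated array 1 or 3 or 4 h array 2 or 3.

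**Figure D4:**
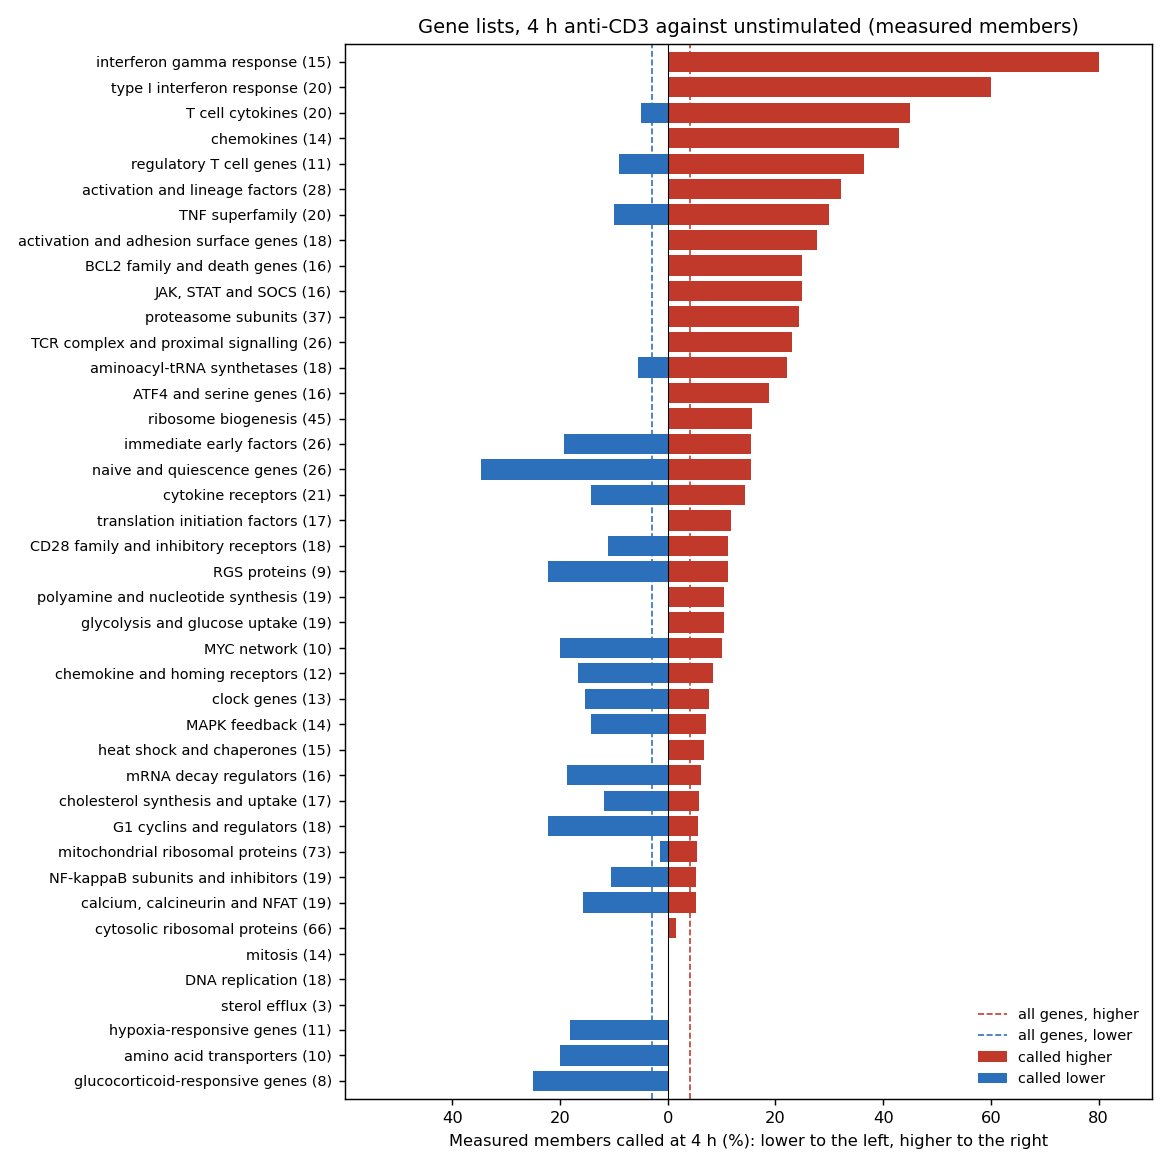
Percent of the measured members (number in brackets) of each list, leaving out cell type markers and families chosen after values were seen, called higher (red, to the right) or lower (blue, to the left) at 4 h, with dashed lines at the share of all genes, 4.08% higher and 2.97% lower. The lists drawn were themselves chosen with earlier results of these data known. Among them, both interferon lists, the cytokines and the chemokines have the longest red bars, and the naive and quiescence genes the longest blue bar.

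Lists that follow handling or culture were looked at because no 4 h culture without antibody is labelled. Of 8 glucocorticoid-responsive genes, Klf9 and Rhob fell (-0.57 ± 0.14 and -0.87 ± 0.22), both not called without 1 array (adjusted p = 0.0957 without 4 h array 1 and 0.124 without unstimulated array 3). Tsc22d3, the glucocorticoid-induced leucine zipper, measured 9.05, 8.99 and 8.89 before and 8.25, 8.29 and 8.38 after, without overlap and without a call (-0.67 ± 0.21, adjusted p = 0.0564). Among 13 clock genes, Nr1d2 (REV-ERB beta) fell by 1.23 ± 0.18, Dbp fell by 0.87 ± 0.23, not called without unstimulated array 3 (adjusted p = 0.124), and Ciart rose by 0.52 ± 0.14, not called without 4 h array 2 (adjusted p = 0.126). Of 11 hypoxia-responsive genes none rose and Bnip3l and Ndrg1 fell (-0.49 and -0.88), the latter not called without unstimulated array 1 (adjusted p = 0.191), and Vegfa differed by -0.02. Among 15 heat shock genes Hsph1 rose by 0.75 ± 0.20, not called without 4 h array 1 (adjusted p = 0.123), and Hsp90aa1 differed by -0.17 ± 0.18. Median differences were -0.62 for the glucocorticoid list, -0.19 for the clock list, -0.02 for the hypoxia list and 0.07 for the heat shock list. Members above 0 numbered 2 of 8, 3 of 13, 5 of 11 and 9 of 15. The share of culture in these and the other differences was not tested.

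The same contrast in the congenic strains used arrays of its own, within the same fit. Of the 697 genes that rose in C57BL/6 cells, 684 had the same sign in B6.Sle1b and 386 were called higher there (2.57% of all genes were, and 5.69% in either direction), and 682 had the same sign in Sle1b.BACSlamf6-H1 with 430 called higher (4.22%, and 10.6% in either direction). Of the 507 that fell, 502 and 493 had the same sign, with 367 and 408 called lower (3.12% and 6.35%). The percentages are baselines for the called counts only. The share of all genes with the same sign is not given here. How far the same-sign counts exceed that share was not tested. The medians were 0.62 and 0.66 for the rises, against 0.79 in C57BL/6, where the genes were picked, and -0.78 and -0.89 for the falls. All 20 of the largest rises were called in both congenic strains, and of the 20 largest falls 19 and 20. Ccl3 rose by 5.004 and 5.01 there and Il4 by 3.21 and 3.80.

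The difference between responses was tested for every gene. No gene was called for B6.Sle1b minus C57BL/6 or for Sle1b.BACSlamf6-H1 minus C57BL/6 (0% of 17097 each, limma). In these tests 376 and 664 genes had an unadjusted p under 0.05. Both counts lie under the share of all genes that this threshold passes where nothing differs. Array weights, whose estimation did not converge, gave 1310 calls in the first test and none in the second. The smallest adjusted p was that of Arhgap5 in the second test. Arhgap5 fell in C57BL/6 from 6.92, 7.36 and 7.06 to 6.31, 6.27 and 6.71 (-0.68 ± 0.15, adjusted p = 0.00428) and rose in Sle1b.BACSlamf6-H1 by 0.62 ± 0.15 (adjusted p = 0.0075), with a difference of 1.30 ± 0.21 (adjusted p = 0.0543). It was the only gene called in opposite directions in C57BL/6 and a congenic strain. Ifng rose by 2.14 in C57BL/6 and measured 0.89 and 1.84 higher in the congenic strains, differences that were not called.

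Levels at 24 h, from 2 further C57BL/6 arrays, are set beside those at 4 h; both comparisons use the 4 h arrays. From 4 h to 24 h, 3186 genes were called (18.6%), 2045 higher (12%) and 1141 lower (6.67%). Il4, which was 3.92 above the unstimulated level at 4 h, differed by -2.02 ± 0.30 between 24 h and 4 h (adjusted p = 3.35e-05), and Egr1 by -1.63 ± 0.40. Cd69 and Rgs1 were lower too (-1.69 ± 0.26 and -1.44 ± 0.14), as were Frmd4b (-2.83 ± 0.27) and Rragd (-1.84 ± 0.26). Ccl3, Ccl4, Csf2, Irf4 and Myc were not called between the times (0.43, 0.11, -0.27, -0.33 and 0.71).

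Other genes were higher at 24 h than at 4 h. Il2 was 1.61 ± 0.41 higher at 24 h than at 4 h, Il2ra 1.15 ± 0.29, Lta 1.52 ± 0.24, Ccl1 2.77 ± 0.33, Bcl2l1 1.80 ± 0.17 and Pros1 2.37 ± 0.26. Among growth genes, Srm was 2.47 ± 0.37 and Psat1, of serine synthesis, 2.39 ± 0.20 higher at 24 h than at 4 h. Slc7a5, which was not called at 4 h, was 1.51 ± 0.39 higher. Of the type I list, 12 of 20 genes were called between the times, all of them lower at 24 h, as Oas2 (-1.63 ± 0.31) and Irf7 (-1.34 ± 0.25), whereas Gbp2 and Cxcl9 were not called (-0.31 ± 0.18 and 0.48 ± 0.45). Nr4a1, Nr4a3 and Fos, none of them called at 4 h, were lower at 24 h than at 4 h (-2.18 ± 0.43, -1.99 ± 0.36 and -2.56 ± 0.30).

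**Figure D5:**
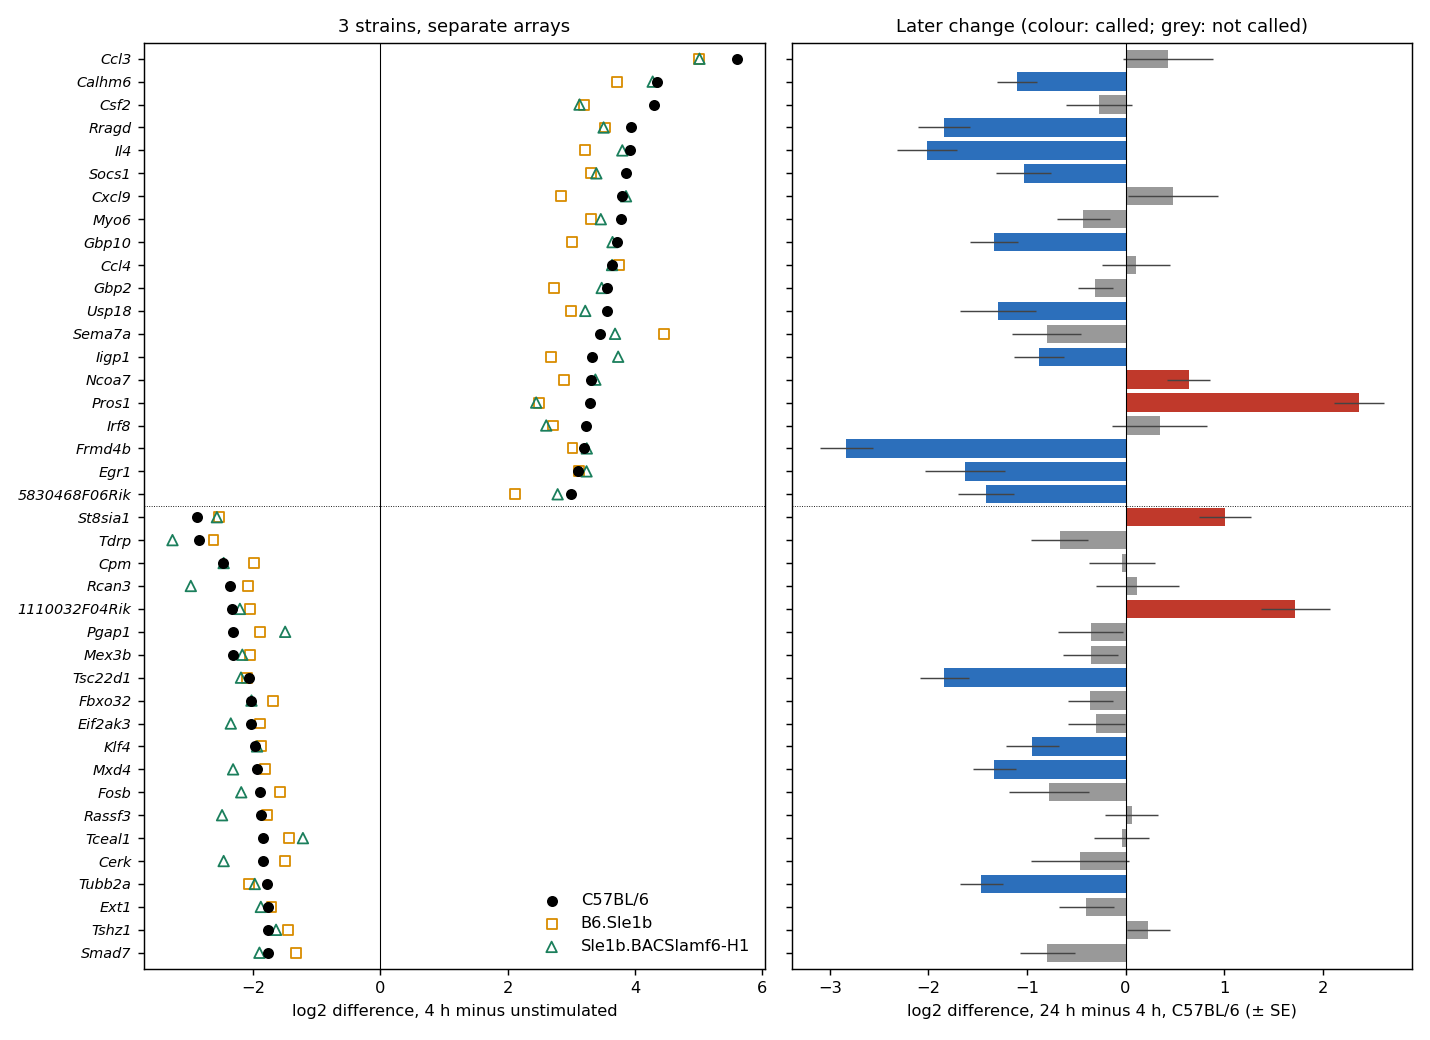
The 20 largest rises and 20 largest falls at 4 h in C57BL/6 cells (black). Left, the log2 difference in the 3 strains, each from its own arrays, with every congenic value on the same side of 0. Right, the log2 difference of 24 h minus 4 h in C57BL/6 ± SE, where Frmd4b stands at -2.83 and Pros1 higher by 2.37.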

How the data were processed

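The authors deposited linear intensity values for 45141 probe sets; RMA is named in the submitters' processing notes, without a version. The deposited arrays did not share 1 distribution, with 75th percentiles from 34.8 to 48.9 among the 6 compared. Quantile normalization of the values again gave 955 genes called higher and 717 lower at 4 h. A global shift in RNA cannot be told from differences between arrays here. Values were taken to log2 without filter or pseudocount. The platform annotation names 1 gene for 28898 probe sets; each of 17097 genes was tested through its probe set with the highest mean, and of 141 further probe sets above background in the named genes, 5 had the opposite sign and none was called that way. All 26 biological arrays in 9 groups entered limma 3.58.1 (R 4.3.3, lmFit and eBayes, Benjamini-Hochberg). Folds against a group at background use the higher of background and value on each array. Deviations of same-numbered arrays from their group means correlated by 0.816, 0.325 and -0.286 in C57BL/6 and by 0.466, -0.358 and 0.00938 in Sle1b.BACSlamf6-H1. In B6.Sle1b all were over 0.1 (0.526, 0.552 and 0.734). These values cannot show pairing, since arrays alike in intensity could correlate too. Array 3 of B6.Sle1b had the lowest 75th percentile of its group both unstimulated (35.6) and at 4 h (39.2). On simulated data, changes of log2 0.585, 1, 2 and 3 were recovered in 54%, 88%, 96% and 100% of 50 genes each, for this comparison. The simulated noise was independent between genes and arrays and held none of the differences between whole arrays seen here. Recovery in the data themselves may therefore differ.

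Named genes were the 20 largest rises and 20 largest falls with arrays apart and the brighter group above background, 47 matched of 56 panel genes, up to 8 called members of each of 50 lists, and the smallest interaction. Members and lists were chosen with earlier results of these data known. Lists are described by counts and medians; 93 of 780 members asked for have no probe set named here. Promoters are RefSeq windows of GRCm38.p6.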

Additional observations from a re-analysis of the deposited data

How the results depend on the processing

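No gene called at 4 h was called in the opposite direction under any setting tried, and none of the 226 called genes named by rule reversed its sign; 160 of them kept the call without each array in turn and 66 lost it. Against 697 higher and 507 lower, the counts were 277 and 197 with the 6 arrays alone, 1521 and 1042 with each array's 75th percentile as a covariate, 2507 and 2235 with array weights (whose estimation stopped before converging) and 148 and 64 when limma's treat asked for more than 1.5-fold. They ranged from 466 to 687 higher and from 311 to 746 lower with 1 array left out. The highest count of falls came without unstimulated array 2, the array with the lowest 75th percentile, where 47.9% of calls were rises. With treat 69.8% were rises. Array weights called 1310 genes for B6.Sle1b minus C57BL/6, and leaving out 1 array 0 to 1. For Sle1b.BACSlamf6-H1 minus C57BL/6, 1 gene was called with medians centred, 2 with the covariate, 1 with a replicate block shared across strains and 0 to 1 with 1 array left out. For 24 h against 4 h, 4967 were called with the covariate, 810 with treat and 2093 to 2890 with 1 array left out. A replicate block, for a pairing that the arrays' deviations cannot show, gave 827 higher and 638 lower by strain and number, and 730 and 540 with numbers shared across strains.

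Of panel genes that were not called, Btg1 measured -0.29 and Il21 -0.033 with the mean of probe sets, and Egr3 0.17 and Hsp90aa1 0.026 with array weights. With 1 array left out, signs turned for Btg1 (-0.037 to 0.15), Dusp2 (-0.30 to 0.25), Egr3 (-0.205 to 0.065), Icos (-0.089 to 0.012), Il21 (-0.075 to 0.23), Nfkbid (-0.10 to 0.28), Nr4a3 (-0.06 to 0.54), Pdcd1 (-0.056 to 0.27) and Slc7a5 (-0.62 to 0.17). Which genes lie at background limits folds rather than calls, and 5859 genes lay there in both groups.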

Other observations

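Some gene families are described by their counts. All were chosen after values had been seen and share members with the lists above, so the counts describe these arrays only. Of 6 guanylate-binding proteins 5 rose, with a median of 2.86, led by Gbp10 (3.72 ± 0.22) and Gbp2. Of 12 poly(ADP-ribose) polymerases 5 rose, and these were Parp14, Parp12, Parp9, Parp10 and Parp11, between 2.90 ± 0.25 for Parp14 and 1.75 ± 0.28 for Parp11, whereas Parp1 and Parp2, which act in DNA repair, were not called (0.10 and 0.36). Of 7 Schlafen genes 4 rose, with Slfn5 at 2.53 ± 0.27 and Slfn8 at 2.21 ± 0.13. Of 5 genes of the Ifi200 cluster, which encode DNA-binding proteins with a pyrin domain, 4 rose, with Ifi203 at 2.37 ± 0.16 and Ifi205 at 1.21 ± 0.18. Array 3 was the highest 4 h array in all 4 Schlafen, all 4 Ifi200 and all 5 guanylate-binding genes that rose. Of 51 TRIM genes 7 rose and 3 fell, with Trim12c at 1.95 ± 0.16 and Trim13 at -1.63 ± 0.23. Among 25 genes of the MHC region, H2-DMa, a chaperone of class II peptide loading, rose by 2.64 ± 0.28 and the nonclassical class I genes H2-T24 and H2-T23 by 1.53 ± 0.23 and 1.15 ± 0.14, while the class II chains H2-Aa, H2-Ab1 and H2-Eb1 differed by -0.10, -0.06 and -0.07.

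Of 14 KLF genes 6 fell and none rose, with Klf11 at -0.99 ± 0.21 beside Klf4, Klf3, Klf10, Klf6 and Klf9 given above. Of 24 genes of TGF-beta and SMAD signalling 10 fell and none rose, with a median of -0.37. They included the receptor genes Tgfbr3 (-1.64 ± 0.25) and Tgfbr2 (-0.89 ± 0.21), the transducer Smad3 (-1.19 ± 0.23) and the antagonists Smad7 (-1.76 ± 0.25), Bambi (-1.37 ± 0.17), Ldlrad4 (-1.17 ± 0.20), Tgif1 (-1.36 ± 0.28) and Skil (-0.87 ± 0.11). The other 14 were not called. All 10 had the same sign in both congenic strains, as did 490 of all 507 genes that fell. The shared sign therefore does not set these 10 apart.

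Beside the named genes, 16139 probe sets without a single gene name were on the arrays, and 228 of them were called higher and 247 lower over all probe sets. These were not named here.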
